A study of Mus musculus with 4 samples.

Results

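Disallowed genes are genes that most tissues use and that the pancreatic beta cell keeps at a very low level. Of the 32285 genes counted in the islet libraries, 10 genes of this kind were taken by their symbols, namely Ldha, Slc16a1, Hk1, Acot7, Pdgfra, Igfbp4, Cxcl12, Oat, Smad3 and Mgst1. The series holds 4 single-cell RNA-seq libraries of islets from male mice, 1 library per group, each made from the pooled islets of a few animals. Pax4 WT and Pax4 HH mice on the standard chow diet (SCD) were 12 weeks old, and Pax4 WT and Pax4 HH mice on a high-fat diet (HFD) for 4 weeks were 16 weeks old, so diet and age cannot be told apart. Pax4 HH mice are homozygous for an arginine-to-histidine exchange knocked into the endogenous Pax4 gene, in every cell of the animal, and Pax4 WT mice carry the normal gene. A substitution of this kind leaves the Pax4 count uninformative, so the genotype labels were not checked from the counts.

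The beta cell couples glucose to insulin release through mitochondrial metabolism. Pyruvate made from glucose enters the mitochondrion and is for the most part not turned into lactate. Lactate dehydrogenase A and the monocarboxylate transporter MCT1 are kept low, so that muscle lactate or pyruvate does not trigger insulin release during exercise, and hexokinase 1, which works at low glucose, is kept low as well. Other disallowed genes encode growth factor receptors and secreted proteins that stromal and endothelial cells use. Their reappearance is often read as a sign that a beta cell is losing its identity, and the comparisons between the libraries ask whether any of the 10 genes appeared in beta-like cells of either genotype or diet.

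The 4 libraries held 4665 to 7123 cell barcodes and 68011082 to 104810105 UMIs (unique molecular identifiers, each standing for 1 captured RNA molecule). After filters on depth and mitochondrial RNA and removal of 33 to 154 predicted doublets, 1999 to 4231 cells remained, and 6 to 11 barcodes were shared by any pair of libraries. The WT HFD library stood apart in keeping only 38.3% of its barcodes, against 61.6% to 67.8% in the others. Clusters made without the 10 genes gave 2012, 1956, 1123 and 2764 beta-like cells in WT SCD, HH SCD, WT HFD and HH HFD, the order used for every set of values given here. All 10 beta markers checked, among them Ins1, Ins2, Slc2a2 and Nkx6-1, were detected in the beta-like clusters. The beta-like sums ran from 33584187 to 68448380 UMIs, so that a count of 0 still allows 0.0893 CPM in WT HFD and 0.0438 CPM in HH HFD (CPM, UMIs per 1000000 UMIs of the class in that library, with 3 UMIs as the limit). With 1 library per group there is no replicate and no test, and every interval given covers counting error only.

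All 10 genes together gave 2.64, 2.21, 1.31 and 3.81 CPM in beta-like cells, that is 143, 115, 44 and 261 UMIs over the 4 groups. The same sum was 65.3 to 74.3 CPM in alpha-like, 28.7 to 45.8 CPM in delta-like and 18.7 to 28.1 CPM in PP-like cells. It reached 672 to 764 CPM in endothelial-like cells and 1625 to 2076 CPM in stromal-like cells. For this sum beta-like cells were the lowest of these 6 classes in each library. Their 4 values did not overlap with those of any other class, and other sets of genes were not compared. A few genes carried the sum in the endocrine classes. Of 383 alpha-like UMIs in WT SCD, 292 were Oat and 54 Hk1, and of 32 PP-like UMIs in WT HFD, 22 were Oat. Acot7 gave 53 of 103 delta-like UMIs in WT SCD. Not every gene followed the sum, since Cxcl12 in WT SCD gave 1.01 CPM in beta-like and 0.39 CPM in alpha-like cells. Hormone transcripts made up 58.3% to 61.2% of the UMIs of beta-like cells, which lowers the CPM of every other gene there. With hormones and mitochondrial genes left out of the total, 28 in place of 30 of the 50 comparisons of a gene with a class, described with the class counts, still put beta-like cells lower by 2-fold or more in all 4 libraries.

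**Figure D1:**
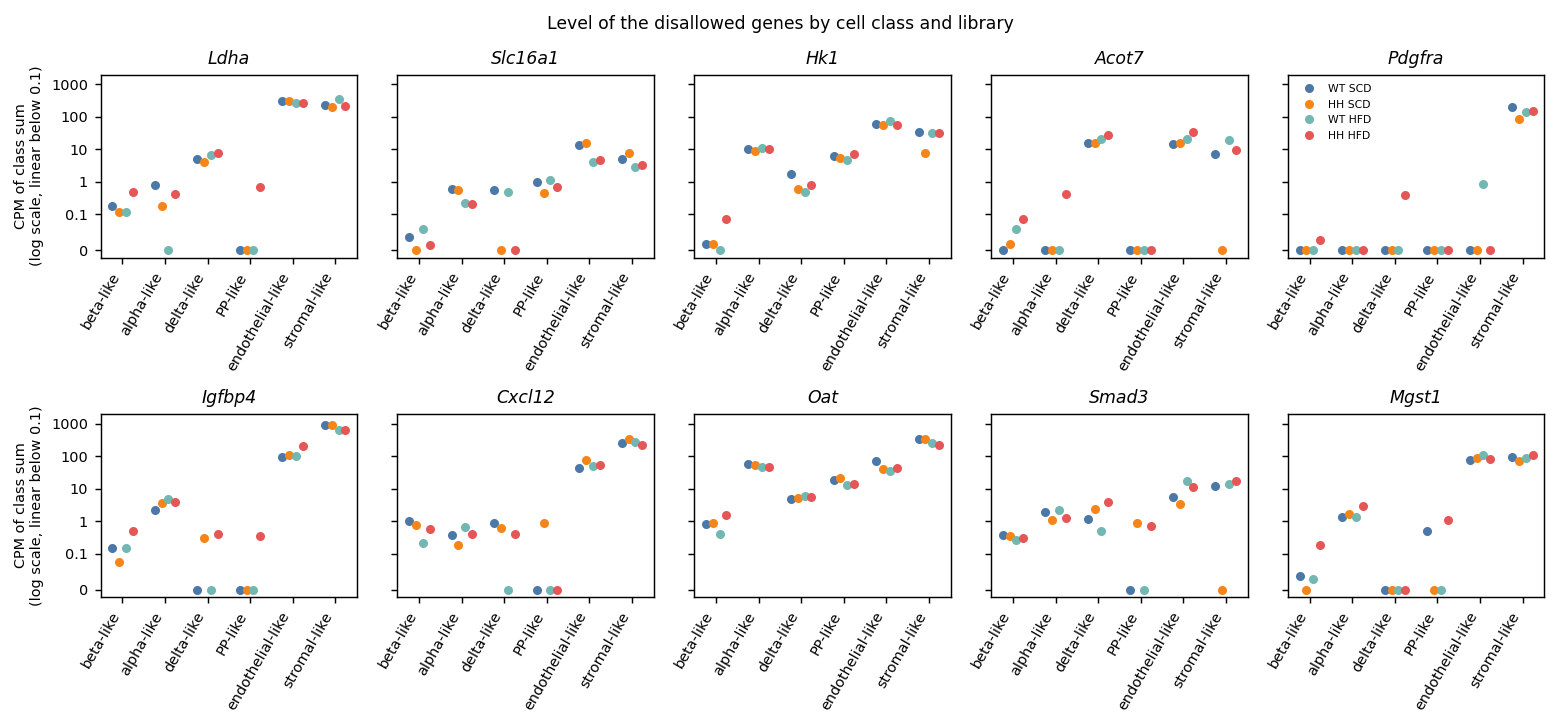
Each panel plots 1 gene, with cell classes on the x axis and CPM of the class sum on the y axis, on a log scale that is linear below 0.1, and 1 point for each of the 4 libraries. The beta-like points lie at or below 1.55 CPM for every gene, while the stromal-like points of Igfbp4 lie between 633 and 912 CPM.

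Ldha and Slc16a1 act at the same step, the exchange of pyruvate and lactate. Ldha encodes the lactate dehydrogenase subunit that favours lactate formation, and Slc16a1 encodes the plasma membrane carrier MCT1 that moves lactate and pyruvate across the membrane. Ldha (chr7:46841475-46855627, plus strand, GRCm38) gave 0.18, 0.12, 0.12 and 0.48 CPM in beta-like cells, from 10, 6, 4 and 33 UMIs. The 3 libraries other than HH HFD lay within each other's intervals, and HH HFD was the highest. In endothelial-like cells Ldha stood at 309, 298, 261 and 275 CPM and in stromal-like cells at 235, 206, 353 and 215 CPM, and these levels were 570-fold to 2585-fold and 446-fold to 2960-fold those of beta-like cells in the same libraries. The other endocrine classes were not alike. Delta-like cells held 5.15, 3.97, 6.47 and 7.57 CPM of Ldha, all above the beta-like values, whereas alpha-like cells held 4, 1, 0 and 2 UMIs and PP-like cells 0, 0, 0 and 2 UMIs. Ldha was thus near the limit of detection in alpha-like and PP-like cells as well as in beta-like cells.

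Slc16a1 (chr3:104638668-104658462, plus strand) was close to the limit of detection in every endocrine class. Beta-like cells held 2, 0, 2 and 1 UMIs, and no fold is given for so few. Alpha-like cells held 3, 3, 1 and 1 UMIs. Endothelial-like cells gave 13.4, 15.3, 4.22 and 4.73 CPM, with the SCD libraries above the HFD libraries in both genotypes. The gene models Gm43581 and Gm43585 overlap Slc16a1 on the same strand, and reads in the overlap cannot be told apart.

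The promoters of Ldha and Slc16a1 are shown because they were the only members whose 250 bases before an annotated start held the palindrome CACGTG, the E-box that also contains the shorter core ACGTG. Both strands were searched, and 6.02% of the 32851 RefSeq starts held CACGTG in the same window and 16.6% held ACGTG. The sequences are RefSeq, build GRCm38.p6, plus strand, 5′ to 3′, with CACGTG in capitals, for Ldha at chr7:46845554-46845803 and for Slc16a1 at chr3:104638414-104638663.
Ldha: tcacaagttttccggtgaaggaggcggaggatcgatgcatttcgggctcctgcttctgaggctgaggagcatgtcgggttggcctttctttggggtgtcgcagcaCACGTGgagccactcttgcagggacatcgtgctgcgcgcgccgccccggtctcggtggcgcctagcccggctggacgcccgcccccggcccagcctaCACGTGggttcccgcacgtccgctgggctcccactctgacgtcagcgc
Slc16a1: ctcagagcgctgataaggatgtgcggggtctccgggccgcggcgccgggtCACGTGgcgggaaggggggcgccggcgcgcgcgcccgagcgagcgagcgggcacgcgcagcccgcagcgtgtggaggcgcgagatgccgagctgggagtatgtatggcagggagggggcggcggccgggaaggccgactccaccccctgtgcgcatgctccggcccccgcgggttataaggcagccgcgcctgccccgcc
The Ldha window held the motif at 145 and 48 bases before the start and the Slc16a1 window at 200 bases before it. A further RefSeq start of Ldha, at which the window held no CACGTG, is not shown. These matches describe the letters and say nothing of binding in these cells.

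Hk1 (chr10:62268855-62379908, minus strand) encodes hexokinase 1, the high-affinity enzyme that phosphorylates glucose at any physiological concentration. Beta-like cells held 1, 1, 0 and 6 UMIs of Hk1. Alpha-like cells gave 10.5, 9.08, 11.1 and 9.89 CPM, PP-like cells 6.06, 5.36, 4.67 and 7.34 CPM, and endothelial-like cells 58.1, 56.2, 76.7 and 57.5 CPM. Beta-like cells thus stood apart from alpha-like and PP-like cells for Hk1, which was not the case for Ldha. Hk2 had no UMI in beta-like cells of any library. The antisense gene Hk1os overlaps Hk1.

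Oat, Acot7 and Mgst1 encode further metabolic enzymes. Oat (chr7:132557478-132576398, minus strand) encodes the mitochondrial ornithine aminotransferase, which links ornithine to glutamate and proline. Its annotation overlaps that of Fgfr2 and Acot7 overlaps Gm13096, each on the same strand, and reads in an overlap cannot be told apart. With 45, 45, 14 and 106 UMIs, or 0.83, 0.86, 0.42 and 1.55 CPM, it was the most counted of the 10 genes in beta-like cells of HH HFD. Alpha-like cells held 56.7, 51.9, 46.5 and 46.0 CPM, which was 29.7-fold to 111.5-fold the beta-like level of the same library, lowest in HH HFD. PP-like cells held 12.8 to 20.5 CPM and stromal-like cells 214 to 343 CPM. Acot7 (chr4:152178134-152271855, plus strand) encodes a cytosolic acyl-CoA thioesterase known from neurons. Its UMIs in beta-like cells numbered 0, 1, 2 and 6. Among the endocrine classes it was found in delta-like cells, at 15.2, 15.6, 20.4 and 26.7 CPM, and alpha-like and PP-like cells held at most 2 UMIs in any library. Mgst1 (chr6:138140316-138156755, plus strand) encodes a membrane glutathione transferase and was counted 2, 0, 1 and 13 times in beta-like cells. Ductal-like cells gave 882 to 1335 CPM of Mgst1 and endothelial-like cells 74.9 to 106 CPM, and delta-like cells had no UMI of it in any library.

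The 4 signalling genes differed in where they were found. Pdgfra (chr5:75152292-75198215, plus strand), the receptor for PDGF-A that marks mesenchymal cells, gave 203, 87.2, 138 and 150 CPM in stromal-like cells and 0, 0, 0 and 2 UMIs in beta-like cells. Outside the stromal-like class it had 0 to 2 UMIs in each class and library. Beta-like cells did hold the ligand gene, since Pdgfa gave 19.5 to 37.9 CPM there. Igfbp4 (chr11:99041244-99054392, plus strand), a secreted protein that binds insulin-like growth factors, gave 92.8 to 202 CPM in endothelial-like cells and 633 to 912 CPM in stromal-like cells. Beta-like cells held 0.15, 0.08, 0.15 and 0.51 CPM, and alpha-like cells lay between, at 2.13 to 4.67 CPM. Cxcl12 (chr6:117168535-117181367, plus strand), the chemokine that recruits cells carrying CXCR4, gave 220 to 325 CPM in stromal-like cells.

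In beta-like cells Cxcl12 gave 1.01, 0.77, 0.21 and 0.56 CPM, and alpha-like cells held 2, 1, 3 and 2 UMIs of it, where every interval of the ratio to beta-like cells included 0. With hormones and mitochondrial genes left out of the totals, the log2 ratio of beta-like to alpha-like cells was 2.13, 2.86, -0.97 and 1.17, against 1.39, 2.05, -1.68 and 0.43 with them. Its receptor genes Cxcr4 and Ackr3 were at most 0.0893 CPM in beta-like cells. Smad3 (chr9:63646767-63757994, minus strand), a transcription factor that carries the TGF-beta signal, gave 0.37, 0.35, 0.27 and 0.31 CPM in beta-like cells, with intervals that overlap in all 4 libraries. Its partners Smad2 (7.19 to 11.0 CPM) and Smad4 (25.0 to 29.1 CPM) and the receptor gene Tgfbr1 (10.7 to 14.4 CPM) were higher there, while Tgfbr2 stood at 0.0553 to 0.394 CPM in beta-like cells and at 191 to 204 CPM in endothelial-like cells.

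**Figure D2:**
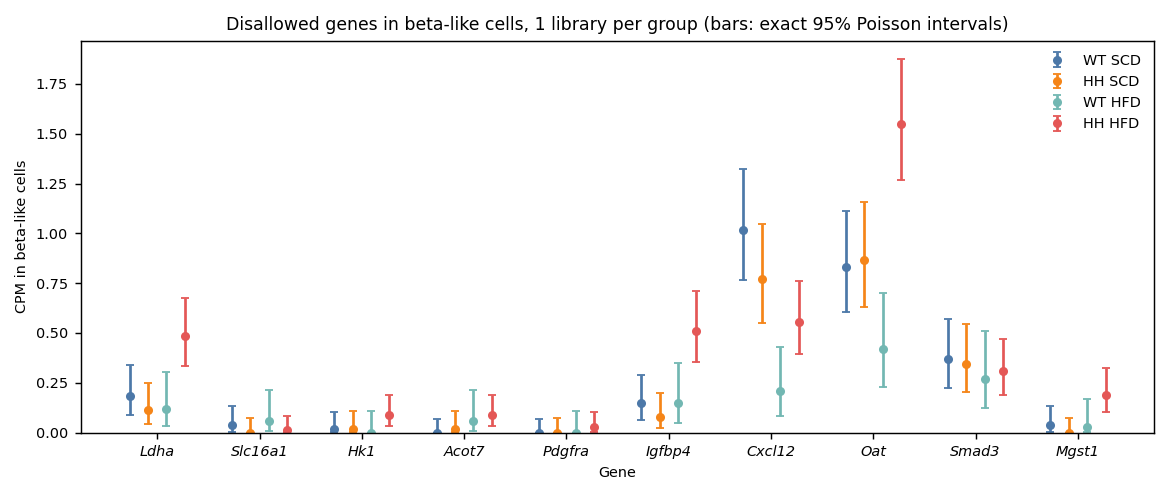
The y axis gives CPM in beta-like cells and the x axis the 10 genes, with 1 point per library and exact 95% Poisson intervals as bars. Oat in HH HFD, at 1.55 CPM, is the highest point, and Pdgfra and Slc16a1 lie at or near 0 in every library.

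A gene was called lower in beta-like cells when its CPM was 2-fold or more below that of the other class in all 4 libraries. Under a minimum of 100 UMIs over both classes in each library, at most 1 of the 10 genes could be judged per class. Oat was lower than in alpha-like cells (10.6% of the genes measured were), Ldha than in endothelial-like cells (32.8%) and Igfbp4 than in stromal-like cells (15.6%), and none of the 10 was measured against delta-like cells (25.9%) or PP-like cells (4.11%). With genes kept where the 24 class sums averaged at least 1 CPM, a filter chosen after the values were seen, all 10 could be judged. Under either filter the genes pass mainly through the classes in which they are high, which nearly fixes a call of lower in beta-like cells, so the counts describe the list and do not support it. The calls numbered 9 of 10 against endothelial-like cells (33.0% of genes), 8 of 10 against stromal-like cells (20.1%), 6 of 10 against alpha-like cells (13.4%), 4 of 10 against delta-like cells (28.1%) and 3 of 10 against PP-like cells (7.11%). Oat and Hk1 were called against every class, and Pdgfra only against stromal-like cells. Some calls rest on very few UMIs, such as Hk1 against delta-like cells (0 against 1 UMI in WT HFD) and Slc16a1 against alpha-like and PP-like cells (0 to 3 UMIs in each sum), with intervals that include 0 in some libraries. Without the HH SCD library, which holds only 16 stromal-like cells, the stromal count was 10 of 10.

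A further 12 disallowed genes were judged under the same filter of 1 CPM. The calls numbered 12 of 12 against stromal-like (20.1% of genes), 8 against endothelial-like (33.0%), 5 against delta-like (28.1%), 4 against alpha-like (13.4%) and 1 against PP-like cells (7.11%). At a minimum of 100 UMIs, 3 of the 12 could be judged against endothelial-like (32.8% of genes called) and 2 against stromal-like cells (15.6%). All of them were called, and 0 could be judged against the endocrine classes. Zfp36l1 against endothelial-like and Rarres2 against stromal-like cells reached the minimum only through the class in which they are high, which nearly fixes their calls. Zfp36l1, an RNA-binding protein gene, gave 0.208 to 0.526 CPM in beta-like and 374 to 444 CPM in endothelial-like cells. Cat, encoding catalase, gave 0.596 to 1.04 CPM in beta-like cells and 36.9 to 54.3 CPM in endothelial-like cells.

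In droplet libraries free RNA adds UMIs to every cell. The insulin UMIs counted in endothelial-like cells gave an estimate of 182 to 433 free UMIs per cell, and the library composition then gave a number expected in beta-like cells. For Igfbp4 the numbers expected were 8.34, 1.48, 6.56 and 7.72 UMIs against 8, 4, 5 and 35 counted, and for Ldha 7.74, 2.41, 7.58 and 7.81 against 10, 6, 4 and 33. Both genes were thus above the expected number in HH SCD and HH HFD, and Ldha in WT SCD as well. In WT SCD and HH SCD these excesses, on 4 to 10 UMIs, lay within counting error. Pdgfra, Hk1 and Mgst1 were at or below the expected number in the 3 libraries other than HH HFD, apart from 1 Hk1 UMI against 0.651 expected in HH SCD. Slc16a1 and Acot7 lay above it wherever they were counted, but on 1 to 6 UMIs. Oat, Cxcl12 and Smad3 stood above it in every library. Oat was counted 45, 45, 14 and 106 times where 8.17, 3.0, 3.44 and 5.26 UMIs were expected, Cxcl12 55, 40, 7 and 38 times where 3.5, 0.886, 0.994 and 2.72 were expected, and Smad3 20, 18, 9 and 21 times where 0.817, 0.344, 0.512 and 0.632 were expected.

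The share of beta-like cells with a UMI stayed small. After thinning every cell to 3000 UMIs, the highest of the 40 shares was that of Cxcl12 in WT SCD, 10 of 2012 cells or 0.497% (exact binomial interval 0.239% to 0.912%). For Ldha the shares were 0.0994%, 0.0511%, 0% and 0.109%, and 0 of 1123 cells in WT HFD allows up to 0.267% at the thinned depth, taking 3 counts for the 0. In endothelial-like cells 51.6% to 62.2% of cells held an Ldha UMI at that depth. Without thinning, Ldha UMIs were found in 0.307% to 1.01% of beta-like cells, whose median depth was 24102 to 29798 UMIs, and in 76.6% to 85.4% of endothelial-like cells.

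The comparison of Pax4 HH with Pax4 WT on SCD asks whether the variant alone brings these genes up in beta-like cells. No gene with enough UMIs for a ratio differed beyond counting error. Oat was counted 45 times in each library, a log2 ratio of 0.06 (95% interval -0.57 to 0.69). Cxcl12 stood at -0.40 (-1.03 to 0.21) and Smad3 at -0.09 (-1.10 to 0.90). Ldha, with 6 against 10 UMIs, stood at -0.68 (-2.42 to 0.92) and Igfbp4, with 4 against 8, at -0.94 (-3.12 to 0.96). None of the 10 reached the minimum of 100 UMIs over both libraries, under which 0.614% of all genes were higher and 2.11% lower in HH by log2 0.5 or more. With a minimum of 20 UMIs over both libraries 3 of the 10 genes were measured, and 0 passed a log2 ratio of 0.5 in either direction, where 2.49% of all genes were higher and 5.42% lower in HH.

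On HFD the beta-like cells of HH held more of 4 genes. Oat, with 106 UMIs against 14, had a log2 ratio of 1.89 (1.08 to 2.81), and it was the only member that met the minimum of 100 UMIs, under which 2.26% of genes were higher and 5.95% lower by log2 0.5 or more. Ldha, with 33 UMIs against 4, had a log2 ratio of 2.02 (0.53 to 3.98), Igfbp4, with 35 against 5, one of 1.78 (0.42 to 3.49), and Cxcl12, with 38 against 7, one of 1.41 (0.23 to 2.82). At a minimum of 20 UMIs, 4 of 5 measured members were higher in HH, where 5.57% of genes were, and 0 were lower, where 8.84% were. All 4 reached the minimum only through HH HFD, the library in which they are high, so the count is a description and supports nothing. Smad3, the fifth, stood at 0.20 (-0.99 to 1.51). Mgst1 was counted 13 times in HH against 1 in WT, with an interval from -0.06 to 8.08, and Hk1 6 times against 0, too few for a fold. When cells were instead put in classes by the markers of the single cell, without clusters, Ldha turned to -1.17 (58 against 63 UMIs) and Oat was lower, at 0.53 (149 against 50 UMIs). The highest of these levels, Oat at 1.55 CPM, was 29.7-fold below that of alpha-like cells of the same library.

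Endothelial, stromal and alpha marker RNA moved with this comparison. The 6 alpha markers summed to 430, 516, 278 and 534 CPM in beta-like cells, whereas the 6 macrophage markers gave 42.1, 53.1, 46.8 and 39.2 CPM. The 7 endothelial markers, led by Pecam1, Cdh5 and Kdr, summed to 6.22, 5.53, 6.52 and 26.8 CPM in beta-like cells, and the 11 stromal markers to 0.85, 0.25, 1.37 and 3.30 CPM, with 2, 6, 1 and 0 of them at 0. In HH HFD the 28 beta-like cells with an Ldha UMI held 880 CPM of endothelial markers, against 17.6 CPM in the other beta-like cells. The 16 cells with a Cxcl12 UMI, 1 of which held 11 of the 38 UMIs, carried 944 CPM against 20.7, and the 21 cells with an Igfbp4 UMI held 584 CPM against 22.7. The 5 cells with an Hk1 UMI held 3863 CPM against 21.1, and 5 of the 6 Hk1 UMIs lay in cluster 1, the beta-like cluster with most endothelial marker RNA. The 97 cells with an Oat UMI held 81.2 CPM against 24.5. Cells with Ldha, Igfbp4 or Cxcl12 UMIs also held 1595 to 2346 CPM of alpha markers, against 522 to 523 CPM in the others, whereas cells with an Oat UMI held 437 CPM against 538. In WT SCD too, the 10 cells with an Ldha UMI held 168 CPM of endothelial markers against 5.41 in the others, and the 46 cells with a Cxcl12 UMI held 37.6 against 5.51, whereas in HH SCD the 38 cells with Cxcl12 held 6.44 against 5.51. In WT SCD and HH SCD the order of alpha markers was the other way round for Oat, whose 42 and 41 carrying cells held 1717 and 1729 CPM of alpha markers against 401 and 486 in the others. Median depth was 24012 UMIs in cells with Ldha and 24102 in the others, but 28379 against 23941 for Oat and 28571 against 24032 for Smad3. The part of this marker RNA in the ratios was not tested beyond the cells left out next.

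**Figure D3:**
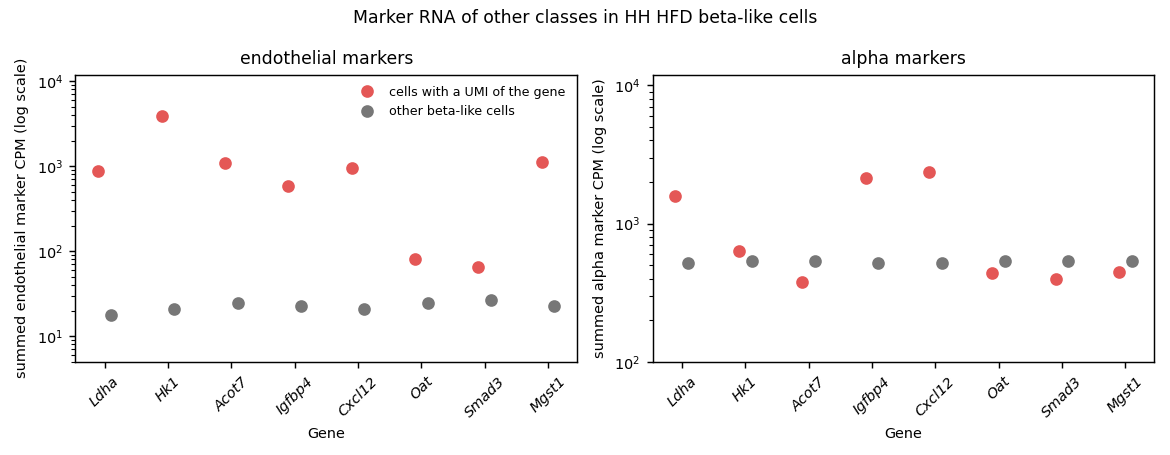
For HH HFD beta-like cells, the x axis gives the gene and the y axis the summed CPM of endothelial markers (left) and alpha markers (right) on a log scale, for cells with a UMI of that gene and for all other beta-like cells. Cells with Ldha, Igfbp4 or Cxcl12 UMIs lie far above the others for both lists, while for Oat the endothelial values are 81.2 and 24.5 CPM and the alpha values 437 and 538 CPM.

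Leaving out the 5% of beta-like cells of each library with the largest share of endothelial and stromal marker UMIs, a step added after these values were seen, moved the 4 genes unequally. Cxcl12 then had 10 UMIs in HH HFD against 7 in WT HFD and a log2 ratio of -0.52, the opposite direction. Igfbp4 had 12 against 4 UMIs and a ratio of 0.55, and Ldha 19 against 3 and a ratio of 1.63. Oat had 97 against 14 UMIs and a ratio of 1.76. Cxcl12 also turned to -0.40 under a looser cell filter and to -0.54 when predicted doublets were kept.

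**Figure D4:**
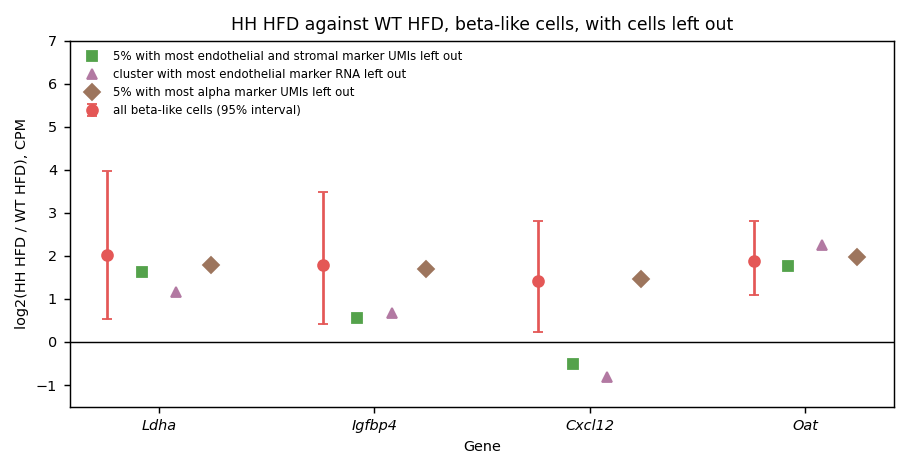
The y axis gives the log2 ratio of CPM, HH HFD over WT HFD, in beta-like cells for 4 genes, as measured with 95% intervals and with 3 sets of cells left out in turn. Oat stays between 1.76 and 2.26, and Cxcl12 lies at -0.52 and -0.82 without the cells or the cluster that hold most endothelial marker RNA.

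The beta-like clusters, made without these genes, held these UMIs unequally. The libraries were not integrated before clustering, so a cluster nearly confined to 1 library cannot be told apart from a library effect. In HH HFD, cluster 1 (294 cells) held 16 of 33 Ldha, 23 of 35 Igfbp4 and 28 of 38 Cxcl12 UMIs, at 2.73, 3.92 and 4.77 CPM, and carried 226 CPM of endothelial and 1632 CPM of alpha markers. In WT HFD the same cluster (296 cells) held 1, 2 and 0 UMIs of the 3 genes, with 7.29 CPM of endothelial markers. Cluster 12, which was nearly confined to HH HFD (1330 of its 1372 cells), held 82 of 106 Oat UMIs, at 2.19 CPM (1.74 to 2.72), with 7.51 CPM of endothelial and 393 CPM of alpha markers, the lowest of the 3 clusters for both. Cluster 3 (1054 cells) held 14 Oat UMIs, at 0.59 CPM (0.32 to 1.0), and in WT HFD it gave 0.31 CPM (0.11 to 0.68). Cluster 1 of HH HFD gave 1.53 CPM of Oat (0.70 to 2.91, 9 UMIs), an interval that contains the value of cluster 12. Cxcl12 had 2 UMIs in cluster 12, or 0.05 CPM.

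**Figure D5:**
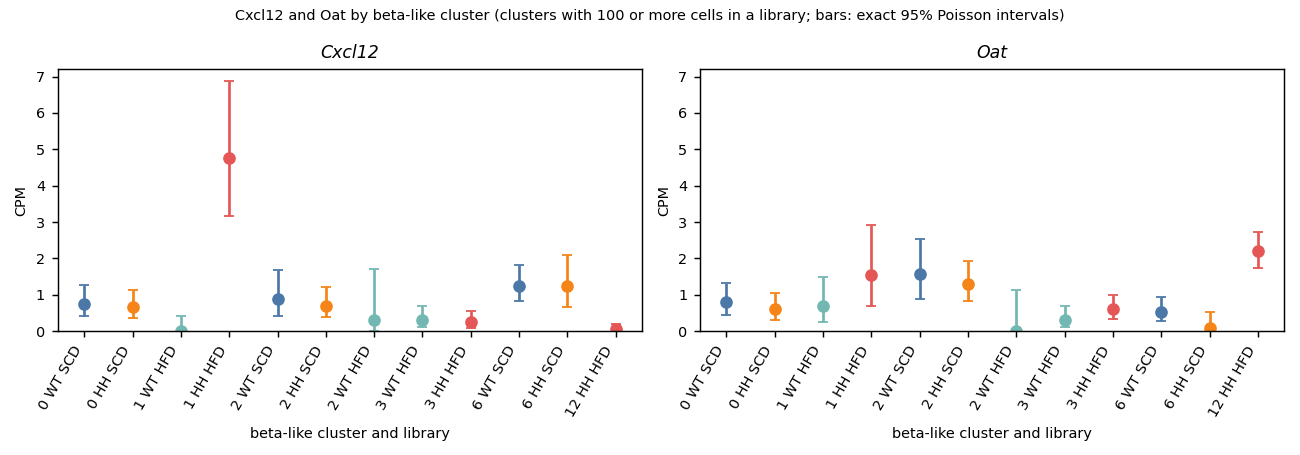
CPM of Cxcl12 (left) and Oat (right) on the y axis is given for each beta-like cluster and library with 100 or more cells, named on the x axis by cluster number and library, with exact 95% Poisson intervals as bars. Cxcl12 stands out in cluster 1 of HH HFD, at 4.77 CPM, while Oat, highest in cluster 12 of HH HFD at 2.19 CPM, has intervals that overlap with those of cluster 1 of HH HFD and cluster 2 of both SCD libraries.

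Between HFD and SCD, the direction depended on the gene and on the genotype. In WT, Cxcl12 was lower on HFD, with 7 UMIs against 55 and a log2 ratio of -2.28 (-3.66 to -1.14), and Oat was lower, with 14 against 45 and a ratio of -0.99 (-1.97 to -0.10). Both were among the 3 members measured at 20 UMIs, where 9.72% of genes were lower and 7.26% higher by log2 0.5 or more. Both reached 20 UMIs only through WT SCD, in which they are high, so the count is a description. None reached 100 UMIs, where 7.19% were lower and 4.1% higher. With classes set by the markers of the single cell, Oat in WT turned to 0.35 (50 against 62 UMIs). In HH, Oat was higher on HFD at 0.84 (0.33 to 1.38), as were Ldha at 2.06 (0.79 to 3.61) and Igfbp4 at 2.73 (1.25 to 4.69). These were 3 of 5 measured members, where 9.9% of genes were higher and 12.9% lower. Oat alone reached 100 UMIs, where 5.89% were higher and 10.7% lower. Ldha and Igfbp4 reached 20 UMIs, and Oat 100 UMIs, only through HH HFD, in which they are high. Igfbp4 was at 1.19 without the 5% of cells with most endothelial and stromal marker UMIs. Mgst1 had 13 UMIs against 0, with a lower limit of 1.21 on the log2 scale, and the 11 HH HFD cells that held them carried 1113 CPM of endothelial markers against 22.5 CPM in the others. Each library serves in a genotype and a diet comparison, so these ratios and those between genotypes are not independent.

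Over all beta-like cells the HH diet comparison gave a log2 ratio of -0.47 for Cxcl12 (-1.15 to 0.21), which includes 0. This ratio depended on the processing. Of its 14 alternatives 9 stayed inside the interval and 5 moved outside it, with values from -2.73 to 0.16 over all 14. By cluster, Cxcl12 lay between 0.66 and 1.25 CPM in every beta-like cluster of the SCD libraries with 100 or more cells, and between 0 and 0.31 CPM in those of the HFD libraries other than cluster 1 of HH HFD. Without cluster 1 the HH ratio was -2.29 (10 against 40 UMIs), but that cluster is the one in which Cxcl12 is high in HH HFD, so this value describes the remaining cells and supports no difference. The SCD and HFD cells fell mostly into different beta-like clusters, which were made without integration of the libraries.

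Beta-like cells that had no Mafa UMI but at least 1 of Gc, Aldh1a3 or Serpina7 after thinning, genes tied to loss of beta cell identity, numbered 71, 80, 90 and 618. In HH HFD, the library with enough of them, they held 1.65 CPM of Oat against 1.52 CPM in the other beta-like cells, a log2 ratio of 0.12 (-0.56 to 0.76). Ldha stood at 0.53 against 0.47 CPM (0.18, -1.11 to 1.34) and Igfbp4 at 0.53 against 0.51 CPM (0.07, -1.21 to 1.21). Cxcl12 had 4 against 34 UMIs and a ratio of -1.49 (-3.45 to -0.003), and Smad3 10 against 11 UMIs and a ratio of 1.46 (0.07 to 2.83). With 2 UMIs of the 3 genes required, 228 cells remained, and Smad3 turned to -1.06 (1 against 20 UMIs), Ldha stood at 1.36 (-0.08 to 2.61) and Igfbp4 at 1.26 (-0.18 to 2.49). Hk1 had 3 against 3 UMIs, too few for a fold. No member passed a log2 ratio of 0.5 under the first rule among genes with 100 or more UMIs, where 1.2% of genes were higher and 3.66% lower. Oat, the only one with that many, did not differ beyond counting error. Mafa stood at 196 CPM in beta-like cells of HH HFD, so after thinning a cell with Mafa RNA can lack a Mafa UMI by sampling alone. The rule can thus take in ordinary beta-like cells, and these ratios cannot decide whether Oat or another member goes with loss of identity. By cluster, cluster 12, which held most Oat UMIs of HH HFD, gave 132 CPM of Mafa against 285 CPM in cluster 3 and 212 CPM in cluster 1, and 200 CPM of Gc against 82.5 and 74.6 CPM.

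The classes in which these genes are high also differed between libraries. Igfbp4 in endothelial-like cells gave 92.8, 106, 101 and 202 CPM, with HH HFD the highest, at a log2 ratio of 0.99 (0.68 to 1.32) over WT HFD, where 4.1% of genes were higher. Ldha in stromal-like cells was lower in HH HFD than in WT HFD, at -0.71 (-1.04 to -0.38), where 24.7% of genes were lower, and at -0.48 with hormones and mitochondrial genes left out of the total. Acot7 in delta-like cells was higher on HFD in HH, at 0.78 (0.23 to 1.33), where 6.74% of genes were higher, and stood at 0.43 (-0.20 to 1.04) in WT. Slc16a1 in endothelial-like cells was lower on HFD in WT (5 against 12 UMIs, -1.67, -3.53 to -0.06) and in HH (6 against 9 UMIs, -1.70, -3.47 to -0.04). Oat in alpha-like cells lay between 46.0 and 56.7 CPM over the 4 libraries and was lower on HFD in WT, at -0.29 (-0.55 to -0.02). In endothelial-like cells it gave 72.7, 39.2, 34.6 and 41.7 CPM, lower on HFD in WT at -1.07 (-1.67 to -0.49) and at 0.09 (-0.64 to 0.87) in HH, and lower in HH than in WT on SCD at -0.89 (-1.65 to -0.19).

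Over a whole library, all barcodes included, Ldha gave 8.88, 6.70, 22.2 and 15.6 CPM. This order, with both HFD libraries above both SCD libraries, was not that of the beta-like cells. Endothelial-like cells numbered 127, 89, 146 and 192 and stromal-like cells 46, 16, 48 and 109. Lymphocyte-like cells, with 469 to 531 CPM of Ldha in the 3 libraries that held any, numbered 0, 5, 41 and 1. Under a looser cell filter the larger lymphocyte-like cluster held 10, 60, 400 and 53 cells. The part of each class in the whole-library values was not tested. In whole-islet RNA, fewer cells of a type and less RNA per cell cannot be told apart.

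Genes that surround the members in their pathways were taken from lists. Of 17 genes of glycolysis, 14 met the minimum of 100 UMIs in beta-like cells of HH HFD and WT HFD, and 0 were higher and 3 lower in HH by log2 0.5 or more, namely Aldoc at -1.08, Pfkl at -0.69 (-0.83 to -0.55) and Pfkp at -0.65 (-0.91 to -0.39). Pfkl and Pfkp encode phosphofructokinase subunits and Aldoc an aldolase. The list median was -0.18 and that of all genes -0.15, and 5.95% of all genes were lower. None of the 11 measured genes for pyruvate and lactate passed the fold, and Ldhb, the other lactate dehydrogenase subunit, ranged from 8.89 to 15.5 CPM in beta-like cells. Slc16a3, which encodes a related lactate carrier, had 1 UMI in beta-like cells of WT SCD and 0 in the other libraries. Pcx, encoding pyruvate carboxylase, gave 19.6 to 28.2 CPM in beta-like cells and 3.5 to 7.41 CPM in alpha-like cells, and Pdk4, a kinase that shuts pyruvate dehydrogenase, gave 0.0738 to 0.351 CPM against 53.4 to 134 CPM.

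Of 9 genes of the NADH shuttles, which carry cytosolic reducing power into mitochondria in place of lactate formation, all were measured and Gpd2, the mitochondrial glycerol phosphate dehydrogenase, stood at the fold in HH HFD against WT HFD, at -0.50 (-0.59 to -0.41), where 5.95% of genes were lower. Among the neighbours of Oat, Pycr1, which encodes an enzyme of proline synthesis, was higher in HH HFD at 0.61 (0.47 to 0.75), and 1 of the 5 measured genes passed the fold, where 2.26% of all genes were higher. In the IGF list, 2 of 5 measured genes were higher in HH HFD, where 2.26% of all genes were. Of these, Igfbp3 reached the minimum of UMIs only through HH HFD, in which it is high, so the count is a description. Igfbp3 had 305 UMIs against 14, at 3.42 (2.65 to 4.31), and its level in endothelial-like cells, 2532 to 3407 CPM, was far above its 4.46 CPM in beta-like cells of HH HFD. Pappa2, a protease that cleaves IGF-binding proteins, was higher at 1.24 (1.15 to 1.33) and gave 408 to 465 CPM in alpha-like cells. Among the 5 measured partner genes of PDGF, CXCL12 and TGF-beta, 0 passed the fold between genotypes on HFD, and Pdgfa was lower on HFD in WT (-0.57, -0.69 to -0.46) and in HH (-0.74, -0.85 to -0.64).

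Of the 12 further disallowed genes, 2 were measured between genotypes on HFD, where 2.26% of all genes were higher and 5.95% lower. Of these 2, 0 were higher and 1, the transcriptional regulator gene Lmo4, was lower in HH at -0.57 (-1.03 to -0.10). At a minimum of 20 UMIs, Zfp36l1 stood at 1.34 (0.15 to 2.75), Fcgrt at 2.14 (0.08 to 5.29) and Cat at 0.37 (-0.29 to 1.06). Tst stood at -0.17 (-0.87 to 0.57) and Parp3 at -0.03 (-1.19 to 1.23). Zfp36l1 and Fcgrt reached 20 UMIs only through HH HFD, in which they are high. On SCD 2 were measured and Gas6, a secreted ligand of receptor kinases, was lower in HH at -0.57 (-1.05 to -0.09), where 2.11% of genes were lower. Between diets, Cat was higher on HFD in HH at 0.80 (0.17 to 1.46), 1 of 3 measured, and 0 of 2 passed the fold in WT. Among the other lists, the genotypes on SCD differed past the fold in Igfbp5 (-1.07, -1.49 to -0.65), Igf2 (-0.52, -1.11 to 0.06) and Aldh4a1 (-0.61, -0.89 to -0.32), and on HFD the thioesterase gene Acot9 stood at 0.54 (0.12 to 0.96).

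On HFD against SCD in WT, the enolase gene Eno1 was higher at 0.74 (0.60 to 0.88) and Ldhb at 0.51 (0.33 to 0.68), where 4.1% of genes were higher, and Igfbp5 was lower at -1.13 (-1.64 to -0.63). Odc1, which encodes the enzyme that turns ornithine into polyamines, was lower on HFD in WT at -1.28 (-1.37 to -1.19) and in HH at -1.08 (-1.16 to -1.01). In HH, Igfbp3 (5.54, 4.30 to 7.17), Pycr1 (0.77, 0.65 to 0.90), Pappa2 (0.71, 0.64 to 0.77), Igf2r (0.56, 0.43 to 0.70) and Mgst3 (0.56, 0.41 to 0.71) were higher on HFD, where 5.89% of genes were, and Aldoc (-0.98, -1.36 to -0.60) and Pfkp (-0.89, -1.11 to -0.67) were lower. Here too Igfbp3 reached the minimum of UMIs only through HH HFD, in which it is high.

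Over 24 sums of 6 classes and 4 libraries, the genes whose log2 levels were most like Ldha were Zfp36l1 (Pearson r = 0.993), Mfge8 (0.991) and Cyba (0.990), out of 2543 genes averaging at least 50 CPM. Those most like Slc16a1 were Hes1 (0.962), Thbs1 (0.955) and Apold1 (0.952). Zfp36l1 is itself on the list of further disallowed genes. The sums of a class are from the same cells in each gene, so these values are a description.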

How the data were processed

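Islet cells were captured on the 10x Chromium 3′ system (v3.1 chemistry). Per the labels and file headers, the authors aligned reads to GRCm38 (mm10) with Cell Ranger 6.0 (6.0.2 in the headers) and deposited UMI counts per gene and barcode, filtered for cells, without ambient RNA correction. Cells with under 10% mitochondrial UMIs, 3000 to 50000 UMIs and 2000 to 5000 genes were kept here, and the 0.8% per 1000 cells with the highest Scrublet scores were left out as doublets. Cells were clustered with scanpy 1.11.5 (3000 variable genes, 30 components, Leiden resolution 1) without the 10 genes, 7 of which were among the variable genes, and clusters were named from marker lists, where 2 clusters with 250 cells stayed unnamed. The 4 libraries were clustered together without integration or batch correction. Counts were summed per class and library and divided by the class total to give CPM. Intervals (95%) are exact Poisson for levels, conditional binomial for ratios and Clopper-Pearson for shares. The ratio step was checked on simulated data. The genes, lists and markers were chosen with earlier results of these data known. From each list, genes past the fold were named, at most 4 per comparison with the largest ratio, and for Ldha and Slc16a1 the 3 genes most like them. Genes named in other places, for levels, were chosen after their values were seen. UMIs were not thinned for CPM. Positions are from GENCODE M21. The pseudogenes Ldha-ps and Ldha-ps2 were not counted as genes in the files. Some items are not reported here.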

Additional observations from a re-analysis of the deposited data

Results flagged for a closer look

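Oat in beta-like cells went opposite ways with diet in the genotypes. HFD against SCD gave a log2 ratio of -0.99 in WT (95% interval -1.97 to -0.10, 14 against 45 UMIs) and 0.84 in HH (0.33 to 1.38, 106 against 45 UMIs), and both intervals, which cover counting error only, exclude 0. The difference between the genotypes was not tested, since each group is 1 library, and diet and age cannot be told apart. With classes set by the markers of the single cell, the WT ratio turned to 0.35 (50 against 62 UMIs), and the directions were then no longer opposite. The cells with an Oat UMI carried 1717 CPM of alpha markers against 401 CPM in the other beta-like cells in WT SCD, and 1729 against 486 CPM in HH SCD. Over all beta-like cells the alpha marker sum was 430 CPM in WT SCD and 278 CPM in WT HFD, and 516 CPM in HH SCD and 534 CPM in HH HFD. Without the 5% of beta-like cells with most alpha marker UMIs the ratios were -1.01 in WT and 0.90 in HH. The part of alpha marker RNA in the Oat ratios was not tested further.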

How the results depend on the processing

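No paired analysis was possible because each group is 1 library. The 16 log2 ratios of single genes were recomputed in 224 alternatives in all, of which 211 stayed inside the counting interval of the ratio, 7 moved outside it and 6 turned the sign of a ratio whose interval excluded 0. Of the 7, 5 belonged to Cxcl12 between diets in HH, which reached -2.73. Ratios whose interval included 0, such as Smad3 between genotypes on HFD (-0.46 to 0.34), also took either sign. Of the calls of a gene lower in beta-like cells than in another class, 3 were made at 100 UMIs, 5 under a looser cell filter, 16 at a minimum of 20 UMIs, 0 at 400 and 6 without the HH SCD library. With genes averaging at least 1 CPM the calls were 30, and 26 to 32 under the alternatives. Genes past the fold between genotypes on HFD numbered 1, against 3 with classes by the markers of the single cell, 4 at 20 UMIs and 0 at 400. Between diets they numbered 0 in WT, against 2 at 20 UMIs, and 1 in HH, against 2 with single-cell markers, 3 at 20 UMIs, 0 at 400 and 0 at a fold of log2 1. Between genotypes on SCD they were 0 in every alternative, and Cxcl12, which has too few UMIs to enter that count at 100 UMIs, stood at -0.58 with each cell weighted equally. The highest share of beta-like cells, 0.497%, was 0.149% at 1500 UMIs per cell. With single-cell markers, Ldha between genotypes on HFD reversed to -1.17 and Oat between diets in WT to 0.35. Cxcl12 between genotypes on HFD reversed to -0.40 under the looser filter, -0.54 with predicted doublets kept, -0.52 without the 5% of cells with most endothelial and stromal marker UMIs and -0.82 without cluster 1. The cause was not tested. Leaving out libraries, marker-rich cells or cluster 1, and the 1 CPM filter, were chosen after seeing the data. Depth limits most genes here, with 0 to 3 UMIs in many beta-like sums.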
